A study of Drosophila melanogaster with 2 samples.

Results

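Binding of the ETS-domain repressor aop at the genes of the mitochondrial ribosome was examined in Drosophila melanogaster embryos by chromatin immunoprecipitation followed by sequencing (ChIP-seq). The genes were all protein-coding genes of the dm6 annotation whose symbol begins with mRpL (proteins of the large subunit) or mRpS (small subunit), which gave 73 genes, 47 mRpL and 26 mRpS, of 13968 protein-coding genes on 7 chromosome arms. The study holds 1 group, embryos of the strain aop-GFP collected between 0 and 24 h, in which a transgene supplied aop fused to eGFP, and 2 biological replicates of whole organisms were precipitated with an antibody against GFP. Such embryos mix every tissue and stage of embryogenesis, so a peak does not say in which cells the protein was bound, and no embryos of another genotype were compared. A gene is called bound here when the summit of a peak in the thresholded list made from both replicates (1725 peaks) lay within 500 bp of one of its transcription start sites.

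Mitochondrial ribosomes translate the few messages of mitochondrial DNA, which encode core subunits of the respiratory complexes. All of the proteins of these ribosomes are encoded in the nucleus and imported, so their genes are transcribed in nearly every cell. The aop protein, also called Yan, competes with the ETS activator pnt for sites with a GGAA core and is exported from the nucleus and degraded when receptor tyrosine kinase signalling is active.

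A thresholded aop-eGFP peak stood at the start of 9 of the 73 genes, and 8 of these peaks lay in or beside the short stretch between the mRp gene and a protein-coding neighbour transcribed in the opposite direction. The sequences below show what lies under 8 of the 9 peaks, mRpL41 being left out. Each is the longest part of the peak outside annotated exons, so that untranslated and coding bases are not shown. All are given 5′ to 3′ on the plus strand of Release 6, at chr2L:13835374-13835546 for mRpS23, chr3R:15229449-15229595 for mRpS10, chr3L:2373528-2373596 for mRpL23, chr2L:4945406-4945578 for mRpL24, chr2L:4850484-4850640 for mRpS2, chr3L:4364362-4364549 for mRpS6, chr3L:13017979-13018234 for mRpL20 and chr3L:14999667-14999800 for mRpL39. Capitals mark the 21 bases around the summit, or as many of them as fall in the stretch. In mRpL23 the summit itself lies just past the end of the stretch, in an annotated 5′ untranslated exon.
mRpS23: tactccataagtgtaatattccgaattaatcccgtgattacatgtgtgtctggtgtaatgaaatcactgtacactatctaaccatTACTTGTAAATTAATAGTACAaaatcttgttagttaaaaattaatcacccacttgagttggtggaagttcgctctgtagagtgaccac
mRpS10: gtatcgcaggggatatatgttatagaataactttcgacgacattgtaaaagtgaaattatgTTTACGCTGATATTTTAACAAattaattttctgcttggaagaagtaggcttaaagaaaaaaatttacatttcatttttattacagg
mRpL23: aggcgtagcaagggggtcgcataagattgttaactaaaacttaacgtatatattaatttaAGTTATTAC
mRpL24: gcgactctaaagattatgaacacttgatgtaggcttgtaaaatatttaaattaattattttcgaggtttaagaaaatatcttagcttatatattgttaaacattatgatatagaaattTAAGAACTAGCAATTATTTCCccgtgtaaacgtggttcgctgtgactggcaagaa
mRpS2: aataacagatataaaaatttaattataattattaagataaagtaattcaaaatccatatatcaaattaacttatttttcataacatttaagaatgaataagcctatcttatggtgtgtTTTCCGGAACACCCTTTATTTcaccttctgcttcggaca
mRpS6: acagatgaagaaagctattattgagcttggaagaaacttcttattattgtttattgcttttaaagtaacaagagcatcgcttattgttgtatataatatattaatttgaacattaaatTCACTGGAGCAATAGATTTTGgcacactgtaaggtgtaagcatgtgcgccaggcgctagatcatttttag
mRpL20: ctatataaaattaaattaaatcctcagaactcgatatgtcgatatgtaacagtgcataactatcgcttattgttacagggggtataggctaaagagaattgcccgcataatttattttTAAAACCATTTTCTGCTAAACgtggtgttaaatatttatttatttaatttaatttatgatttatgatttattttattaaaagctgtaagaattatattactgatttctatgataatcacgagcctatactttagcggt
mRpL39: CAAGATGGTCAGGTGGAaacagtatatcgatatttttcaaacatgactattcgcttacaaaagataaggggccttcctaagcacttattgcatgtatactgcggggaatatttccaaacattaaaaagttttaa

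Most of these stretches are rich in A and T. The 201 bp around the summit held between 26.4% G and C (mRpL20) and 40.3% (mRpL39) at the 9 bound genes. Their median was 31.8%, where the median of all 1692 thresholded peaks on the arms was 40.8%. The latter includes peaks away from start sites, and no median over promoter peaks alone is given. The lower value therefore cannot be read as a trait of mRp genes. A GGAA core in both orientations, the letters TTCCGGAA, stands at the summit of mRpS2. It matches neither of the ETS forms searched below. GGAA, or TTCC on the other strand, also stands in the stretches of mRpL24, mRpS23, mRpS10, mRpS6 and mRpL39. At mRpL24 it lies within the capitals. The stretches of mRpL23 and mRpL20 do not hold it, and that of mRpL41 is not shown. The core alone was not part of the search below, and its share among other peaks was not counted.

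The share of bound genes was 12.3% (exact 95% binomial interval 5.80 to 22.1), beside 7.23% of all protein-coding genes (1010 of 13968). The interval holds the share of all genes, so in the whole list the 2 shares cannot be separated. Among the 846 strongest peaks 8 of the 73 genes were bound (11.0%, interval 4.85 to 20.5). In that setting alone the interval lay above the share of all protein-coding genes, 4.03%. In the other settings tried the interval held the share of all genes, or met it at the lower bound without replicate 2. A protein-coding neighbour started within 500 bp upstream on the opposite strand at 72.6% of mRp genes and 27.3% of all genes. Shares by that arrangement, given below for the whole list, were not counted among the 846 peaks. The 2 shares in that setting therefore compare unlike mixes of promoters. Their difference cannot be read as a trait of mRp genes. Of the peaks at the 9 genes, 7 ranked among the 500 strongest of the list. Those of mRpL20 and mRpL39 ranked 827 and 1393. Signal, the authors' enrichment value per peak with an unstated scale, ran from 51.5 to 468.7 at the 9 genes with a median of 121. Among the 40 strongest of the 1725 peaks stood 4 of them, and among the 100 strongest still 4. How many of all bound genes ranked so high was not counted. The median of the strongest peak over all 1010 bound genes was 68.1, and that of all thresholded peaks on the arms was 64.8.

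**Figure D1:**
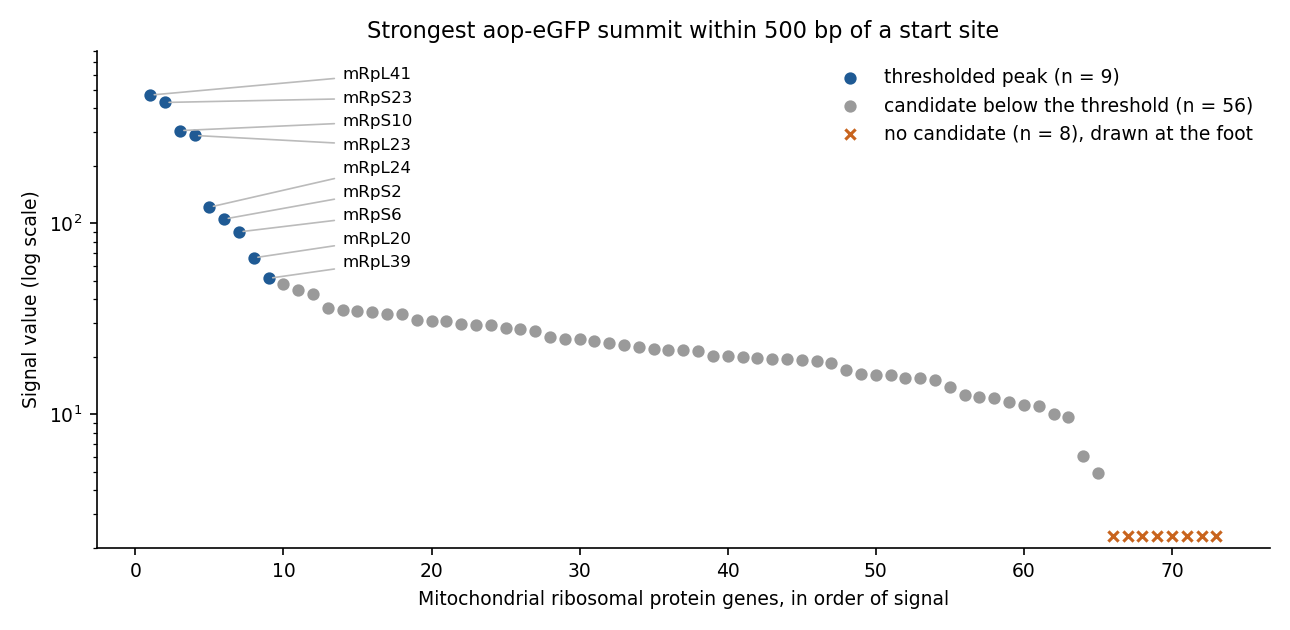
Signal value (log scale) of the strongest summit within 500 bp of a start site for each of the 73 genes, in order of signal, from the ranked list made from both replicates. The 9 bound genes run from 51.5 to 468.7, the 56 genes with only a candidate below the threshold from 4.92 to 47.9, and 8 genes have no candidate.

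Among genes of the large subunit, 5 of 47 were bound (10.6%, interval 3.55 to 23.1). The strongest was mRpL41, which encodes a protein found in mitochondrial ribosomes and not in bacterial ones. Its peak (chr2R:15217649-15217843, intergenic) had a signal of 468.7, rank 9, with the summit 126 bp upstream of the single annotated start. Its signal was 199.9 in replicate 1 (rank 6 of that replicate's 628 peaks) and 273.5 in replicate 2 (rank 9 of 1142). It was the only bound gene with no protein-coding neighbour start within 500 bp of the summit. The other start there, 452 bp from the summit, was that of lncRNA:CR44463, a noncoding RNA on the same strand.

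Next came mRpL23, whose bacterial counterpart in Escherichia coli sits at the exit of the peptide tunnel. Its peak (chr3L:2373528-2373671) had a signal of 288.2, rank 36, with 112.2 in replicate 1 and 170.1 in replicate 2. The gene has 3 annotated starts, and the summit lay 80 bp downstream of the nearest. The start of CG9004 lay 130 bp from the summit, on the upstream side of that start. Of the 9 summits this was the only one downstream of the nearest start of its mRp gene.

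The peak of mRpL24 (chr2L:4945406-4945661), whose counterpart in Escherichia coli starts the assembly of the large subunit, had a signal of 121.4, rank 218, with 60.9 in replicate 1 and 65.9 in replicate 2. The peaks of mRpL20 and mRpL39 were the weakest of the 9. The protein encoded by mRpL20 has a counterpart in Escherichia coli that is needed early in large-subunit assembly. Its signal was 65.9, rank 827 (chr3L:13017979-13018234), and its score of 863 was the lowest of the 9 genes, on a scale that ends at 1000 and starts at 830 in this list. For mRpL39, a protein of mitochondrial ribosomes without a bacterial counterpart, signal was 51.5, rank 1393 (chr3L:14999545-14999800), with the summit 7 bp upstream of the start.

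Among genes of the small subunit, 4 of 26 were bound (15.4%, interval 4.36 to 34.9). The strongest was mRpS23, for a protein specific to mitochondria, with a signal of 429.0, rank 11 (chr2L:13835374-13835546), and values of 172.7 in replicate 1 and 255.5 in replicate 2. Its summit was the farthest from its gene of the 9, 397 bp upstream. The peak of mRpS10, whose counterpart in Escherichia coli is a protein of the head of the small subunit, had 305.5, rank 30 (chr3R:15229449-15229595), with 135.8 in replicate 1 and 165.9 in replicate 2, and its summit lay 145 bp upstream.

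The peak of mRpS2, which encodes a counterpart of a bacterial small-subunit protein, had a signal of 105.2, rank 314 (chr2L:4850484-4850739), with 46.5 in replicate 1 and 58.7 in replicate 2. That of mRpS6, whose counterpart in Escherichia coli binds the central domain of the small-subunit RNA, had 90.1, rank 440 (chr3L:4364362-4364617). Its signal was 25.7 in replicate 1 and 64.1 in replicate 2. The intervals of the shares in the large and small subunits overlap, and each holds the 7.23% of all genes. By origin, 6 of the 42 genes numbered like a bacterial ribosomal protein were bound (14.3%, interval 5.43 to 28.5), against 3 of the 31 with higher numbers, most of them specific to mitochondria (9.68%, interval 2.04 to 25.8).

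Support from the single replicates differed among the 9 genes. Of the 9 bound genes, 6 had a peak in the own thresholded lists of both replicates (mRpL41, mRpS23, mRpS10, mRpL23, mRpL24 and mRpS2). The peak of mRpS6 was in the list of replicate 2 alone, and ranked 1284 of 93043 candidates in replicate 1. The peaks of mRpL20 and mRpL39 were in neither own list. For mRpL20 the candidates ranked 775 in replicate 1 (signal 30.5) and 1371 of 113872 in replicate 2 (35.1). For mRpL39 they ranked 1982 (22.7) and 2095 (30.3). Signal was higher in replicate 2 at all 9 genes, but each replicate's list has its own unstated scale. Across the 9 genes Spearman's rho between the replicates was 0.933, and across the 36 genes that were not bound but had a candidate in both replicates it was 0.257. The thresholded list favours peaks whose ranks match between the replicates, and the bound genes span a wider range of signal, so these 2 values cannot be compared as a difference between strong and weak sites. Both are descriptions over genes, which share the same 2 libraries.

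**Figure D2:**
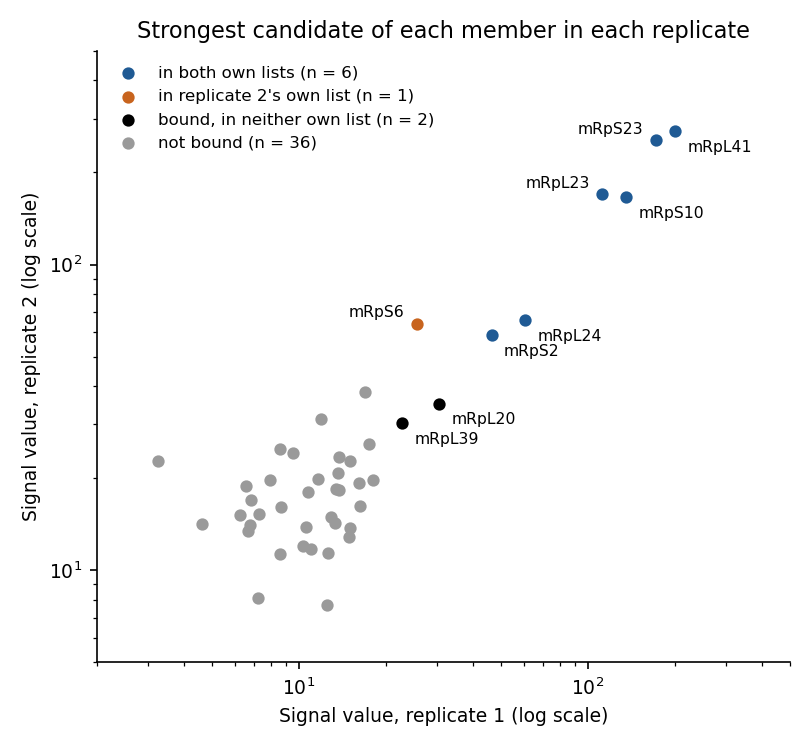
Signal value of the strongest candidate within 500 bp of a start site in replicate 1 and replicate 2 (both log scales), for the 45 genes with a candidate in both. The 6 genes listed by both replicates lie at the upper right, from mRpS2 (46.5 and 58.7) to mRpL41 (199.9 and 273.5), and mRpL20 and mRpL39 lie next to the genes that were not bound.

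The share of genes bound in a single replicate's own list was 8.22% for the mRp genes in replicate 1 (6 of 73, interval 3.08 to 17.0), an interval whose lower bound meets the 3.08% of all protein-coding genes (430). In replicate 2 it was 9.59% (7 of 73, interval 3.94 to 18.8), beside 5.16% (721). All 9 bound genes had the same peak, with the same position and signal, in the conservative list of 1473 peaks, in which 6.51% of all protein-coding genes were bound. No gene outside the 9 had a peak in either replicate's own list.

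All bound mRp genes but mRpL41 had a protein-coding neighbour starting close by on the opposite strand. For 8 of the 9, a protein-coding gene on the opposite strand started within 500 bp of the summit, and for the same 8 genes that start lay within 500 bp of the nearest mRp start. Of all 1010 bound genes, 47.3% had a protein-coding start on the opposite strand within 500 bp upstream of their own. In 5 of the 8 mRp cases the summit was nearer to the neighbour. It lay 29 bp from the start of Mon1 and 193 bp from that of mRpS2. Mon1 encodes part of the exchange factor that activates Rab7 on endosomes. The summit at mRpL24 was 45 bp from betaggt-I, which encodes the beta subunit of a protein prenyltransferase, and 173 bp from mRpL24. The strong peak at mRpS23 lay 95 bp from CenG1A, a gene for an Arf GTPase-activating protein, and 397 bp from mRpS23.

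The summit between mRpS10 and Art3, a protein arginine methyltransferase gene, was almost midway, 145 bp from the former and 112 bp from the latter. That at mRpL20 lay 159 bp from Icmt, which encodes a methyltransferase of prenylated proteins, and 240 bp from mRpL20. The mRp gene was the nearer one at mRpL23, at mRpS6 and at mRpL39. At mRpS6 the start of Cip4, a gene for a membrane-bending F-BAR protein, was 388 bp away and that of mRpS6 60 bp. At mRpL39 the start of Prosbeta2, a proteasome subunit gene, was 278 bp away. The lists do not tell which of the neighbours a peak belongs to. The median distance from the summit to the mRp start was 145 bp, beside 126 bp over all 1010 bound genes. The summit was upstream of the nearest start in 8 of the 9, as in 81.0% of all bound genes.

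**Figure D3:**
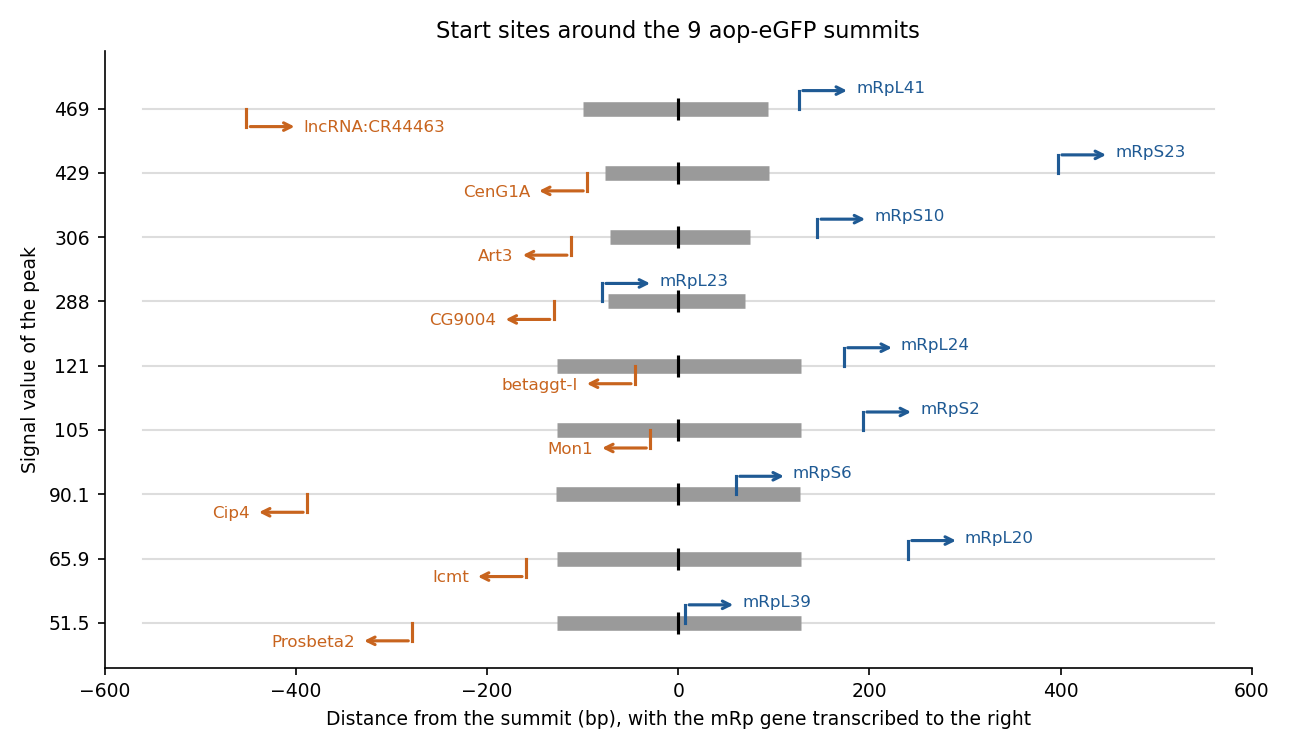
Start sites around the 9 summits, with distance from the summit (black tick) in bp and every mRp gene (blue arrows, above the line) drawn as transcribed to the right. Grey bars are the peaks, orange arrows below the line are the starts of the other genes, and the labels on the left give the signal value. In 8 promoters the orange arrow points away from the blue one, and in 5 it starts closer to the summit.

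Shared promoters were common among mRp genes whether bound or not. A protein-coding gene on the opposite strand started within 500 bp upstream, the head-to-head arrangement, at 53 of the 73 (72.6%) and at 3815 of all 13968 genes (27.3%). Of the 53 genes, 8 were bound (15.1%, interval 6.75 to 27.6), and of all 3815 genes so arranged 12.5% were bound (478). Of the 20 mRp genes without such a neighbour only mRpL41 was bound (interval of the share 0.127% to 24.9%), beside 5.24% of the 10153 other genes. In each class the interval of the mRp genes holds the share of all genes in that class. A summit between a pair of starts counts for both genes, which can raise the share in the head-to-head class, for mRp genes and all genes alike. This split was made after the positions of the peaks had been seen.

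**Figure D4:**
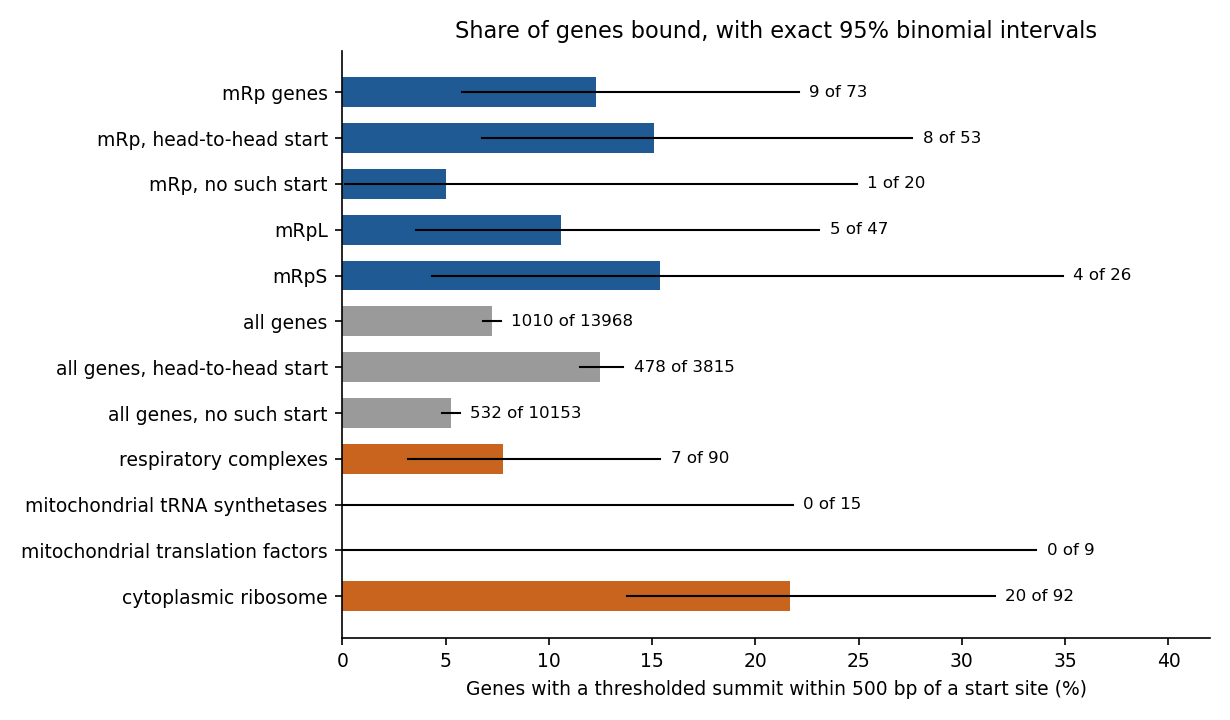
Percentage of genes with a thresholded summit within 500 bp of a start site; bars are shares, black lines exact 95% binomial intervals and labels the counts. The mRp genes (blue) stand at 12.3%, between all genes (grey, 7.23%) and the cytoplasmic ribosome (orange, 21.7%), and the intervals of the mRp classes hold the grey bars of the same class.

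Of the 64 genes that were not bound, most had a candidate below the threshold. A candidate of the ranked list (147076 candidates) lay within 500 bp of a start at 56 of them (87.5%), as at 81.0% of all 12958 unbound genes. The median signal of the strongest candidate was 21.6, beside 21.9 over all unbound genes with one. By signal the strongest was mRpL47, with 47.9 (rank 1969, score 574), and it was followed by mRpL16 (44.6), mRpL11 (42.6), mRpL1 (36.2) and mRpL53 (35.0), and the other 51 lay between 4.92 and 34.9. The score gives another order. No candidate of an unbound gene reached 830, the lowest score in the thresholded list, and nearest to it were mRpL16 (751), mRpL11 (749) and mRpL53 (682), with mRpL20 (863) the nearest bound gene above it.

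At mRpL47 the signal was 31.3 in replicate 2 (rank 1873) and 11.9 in replicate 1 (rank 26764). At mRpL11 it was 38.2 in replicate 2 (rank 1089, score 827) and 16.9 in replicate 1 (rank 7286, score 92). The 8 genes with no candidate were mRpL19, mRpL22, mRpL28, mRpL43, mRpL46, mRpS5, mRpS7 and mRpS9. Of these, mRpS5 had weak candidates in both replicates' own ranked lists (signals 13.8 and 18.3), and mRpL19, mRpS7 and mRpS9 had none in any. A window of 1000 bp added mRpL55, with a peak of signal 59.2 at 644 bp downstream, and within 10000 bp of a start a thresholded summit lay at 28 of the 73. The count at 10000 bp was not made over all protein-coding genes, so it cannot be read as a trait of mRp genes.

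Among other genes of mitochondrial gene expression 1 was bound. None of 15 aminoacyl-tRNA synthetase genes with the suffix RS-m was bound (0 of 15, upper limit 21.8%), none of 9 translation factor genes found under the names searched (0 of 9, upper limit 33.6%), and neither tko nor bonsai, which encode small-subunit proteins under other names. Of 11 genes for mitochondrial DNA maintenance and transcription, mtSSB, the single-stranded DNA binding protein, was bound (signal 72.0). Among the genes of respiratory complexes I to V, 7 of 90 were bound (7.78%, interval 3.18 to 15.4), near the 7.23% of all genes. They were ND-ASHI (67.2), ND-24 (58.5) and ND-51 (53.5) of complex I, COX5A (69.7), COX6B (64.8) and COX8 (48.7) of complex IV and ATPsynE (53.5) of complex V. Their signals, up to 69.7, were below those of 7 of the 9 bound mRp genes. In the cytoplasmic ribosome, with 20 of 92 genes bound (21.7%, interval 13.8 to 31.6), signal reached 244.6 at RpS29.

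The 100 bp on either side of each summit were scanned, on both strands, for sites of known promoter factors. Neither the ETS form CCGGAAGT nor the shorter CGGAAG, which it contains, occurred at any of the 9 bound genes (0 of 9, upper limit 33.6%). Among the 815 thresholded peaks within 500 bp of a protein-coding start, CGGAAG occurred in 9.33% and CCGGAAGT in 1.60%. The E-box CAGCTG, a core promoter element of fly housekeeping genes, occurred at mRpL24, mRpS2 and mRpS6 (3 of 9, 33.3%, interval 7.49 to 70.1), beside 14.5% of these 815 peaks. In each of them it lay between 50 and 92 bp from the summit. The site TATCGATA, bound by DREF, occurred at mRpL39 alone, centred 22 bp from the summit, beside 6.26% of promoter peaks. Core promoter motif 1 (GGTCACACT), the GAGA repeat GAGAGAG and the NRF-1 type site GCGCANGCG occurred at none of the 9, beside 2.58%, 10.7% and 1.10% of the 815 peaks.

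The same search over promoters, from 250 bases before the start to 50 after it, found the E-box in most mRp genes. CAGCTG stood in 40 of the 73 promoters (54.8%, interval 42.7 to 66.5), beside 17.7% of all protein-coding promoters (2468 of 13968). It stood at similar shares in the bound genes (5 of 9, 55.6%, interval 21.2 to 86.3) and in those not bound (35 of 64, 54.7%, interval 41.7 to 67.2). TATCGATA stood in 15 mRp promoters (20.5%, interval 12.0 to 31.6), beside 9.36% of all, and GGTCACACT in 8 (11.0%, interval 4.85 to 20.5), beside 6.04%, all 8 in genes that were not bound. The ETS form CGGAAG stood in 3 (4.11%, interval 0.856 to 11.5), beside 6.34%, and none of the 3 was bound. For both words the bound share was 0 of 9 (upper limit 33.6%), beside 12.5% (GGTCACACT) and 4.69% (CGGAAG) of the 64 unbound genes. That limit lies above both shares, so bound and unbound genes cannot be separated by these words. GAGAGAG stood in 1 (1.37%), beside 5.86%. Neighbours in a head-to-head pair share promoter sequence, and these matches are descriptions of letters and not sites of binding.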

How the data were processed

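The deposited data are peak lists of 1 group with 2 biological replicates, aop-eGFP embryos. Per the file lists deposited with each library, the authors ranked peaks by the irreproducible discovery rate (IDR) on dm6 and gave a ranked and a thresholded list for both replicates together and for each replicate. No source used here names the aligner or the program that called the peaks. Signal values were used as deposited by the authors, on an unstated scale, to describe and rank peaks within a list. The score is the authors' IDR rank score, a whole number of at most 1000. Read depth is unknown, since the lists hold no counts, and all 1725 thresholded peaks stand in the ranked list of 147076.

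Gene models came from Ensembl release 115 and sequence from Release 6, the same assembly. All 73 genes had the same arm, start and end in the RefSeq gene table, and no peak ended beyond its arm. Transposons were left out. Python 3.11.15 and scipy 1.17.1 were used, and the assignment of summits and the motif search were checked on simulated data. Intervals are exact binomial (Clopper-Pearson) 95% intervals and cover counting error only. No test was run: with 1 group and no counts, counts are set beside the same share over all protein-coding genes. Mitochondrial genes were listed by symbol. Of 3 other mitoribosomal names, 2 matched, and of 10 translation factor names, 9 matched. The members, lists and motifs were chosen with earlier results of these data known. Genes were named by rule: every bound gene and the other genes starting within 500 bp of its summit, the 5 unbound genes with the strongest candidates, and the genes with none. mRpL55, mRpS5 beyond its lack of a candidate, and the bound genes of the other lists were named after their values were seen. Alternatives were windows of 250 and 1000 bp, peak overlap in place of the summit, the conservative list, the 846 strongest peaks on the arms, the gene's outermost start alone, and either replicate alone.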

Additional observations from a re-analysis of the deposited data

How the results depend on the processing

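The count of 9 bound genes stayed between 8 and 10 with TSS windows of 250 and 1000 bp, with peak overlap, with the conservative list, among the 846 strongest peaks and with the outermost start alone, and was 7 without replicate 1 and 6 without replicate 2. Of single genes, mRpS23 was lost at 250 bp, mRpL39 among the 846 strongest peaks, and mRpL55 was gained at 1000 bp. The share of all protein-coding genes bound, 7.23%, was 5.72% at 250 bp, 8.78% at 1000 bp, 7.82% with peak overlap, 6.51% in the conservative list, 4.03% among the 846 strongest, 6.10% with the outermost start alone and 3.08% to 5.16% with 1 replicate left out. Bound large-subunit genes fell from 5 to 3 without either replicate. Bound genes sharing the promoter, 8 at 500 bp, were 3 when both distances were 250 bp and 5 to 6 with 1 replicate left out. The DREF site stood at 3 bound genes within 250 bp of the summit in place of 1, and the E-box at 0 within 50 bp and 5 within 250 bp in place of 3. Wider windows and longer lists hold more summits by construction, and any other cause was not tested. No paired analysis was possible because there is 1 group. With 9 bound genes, intervals of shares are wide, and read depth is unknown.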

Other observations

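The sequences under the bound peaks have words in common, which were looked for after the sequences had been seen and were not tested. The word AAATTAA, on either strand, was the word of 7 bases found in most of the windows of 201 bp, in 7 of 9 (mRpS23, mRpS10, mRpL23, mRpL24, mRpS2, mRpS6 and mRpL20). It stood in 14.1% of all 1692 thresholded peaks and in 21.6% of the 828 with G and C content in the range of the 9 genes. In promoters it stood at 6 of the 9 bound genes and at 16 of the 64 not bound (25.0%), beside 23.2% of all protein-coding genes. A word picked as the most frequent in 9 windows is frequent there by choice. The same holds for the promoters of these genes where they overlap the windows. The shares in bound and unbound promoters are therefore not a second observation.

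The longest run shared by a pair of bound genes, mRpL41 not searched, was atcgcttattgtt, 13 bases, at mRpS6 (chr3L:4364437-4364449) and mRpL20 (chr3L:13018040-13018052), on the plus strand in both. No other window of the 1692 thresholded peaks held it, and it occurs 18 times on the 7 arms. The letters CCGGAA, which include the core at the mRpS2 summit, stood within 100 bp of 1 of the 9 summits and of 8.96% of the 815 promoter peaks.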
